A study of Mus musculus with 10 samples.

Results

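All collagen chains listed in a bulk RNA-seq count table of embryonic mouse aorta were followed across 10 libraries. A gene was taken as a collagen chain where its symbol was Col, a number, a, and a number, which gave 44 of 28165 genes. The cells were aortic smooth muscle cells of embryonic day 15.5 embryos that were Eln+/+ or Eln-/-, with 5 libraries for each genotype. Embryos of both genotypes came from matings between Eln+/- mice, carried the Acta2-GFP reporter, in which the smooth muscle actin gene Acta2 drives green fluorescent protein, and received no treatment. The aorta was digested with a collagenase mixture, and cells that were GFP+, CD31- (CD31 marks endothelium) and DAPI- (DAPI enters dead cells) were sorted. Eln encodes elastin, the core protein of elastic fibres. The labels do not name the mutated Eln allele, nor do they say how many embryos went into each library or whether replicates came from different embryos. All p-values therefore reflect the scatter among the 10 libraries, and that scatter may be technical.

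Collagens are secreted proteins built from 3 chains wound into a triple helix, a shape that needs a glycine at regular spacing along each chain. Fibrillar collagens such as types I, III and V form the rope-like fibrils that resist stretch in the artery wall, next to the elastic fibres that let it recoil. Type IV forms the sheet of the basement membrane around smooth muscle cells, type VI forms beaded filaments close to the cell surface, and the fibril-associated FACIT collagens sit on the surface of fibrils.

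The repeat that defines the family is shown first in coding exons from 4 of the chains that the results turn on. Each sequence is from the mm10 (GRCm38) genome and the GENCODE annotation, runs 5′ to 3′ on the coding strand, and has the glycine codons that begin each repeat of 3 codons in capitals. The exons of Col1a1 and Col1a2, which encode the 2 chains of type I collagen, and of Col3a1, the chain of type III, are each 54 bases long and hold 6 unbroken repeats.
Col1a1, exon 34, chr11:94946574-94946627, plus strand: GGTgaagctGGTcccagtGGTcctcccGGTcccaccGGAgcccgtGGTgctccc
Col1a2, exon 34, chr6:4530172-4530225, plus strand: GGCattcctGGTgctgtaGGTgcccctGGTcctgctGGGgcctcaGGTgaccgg
Col3a1, exon 32, chr1:45337958-45338011, plus strand: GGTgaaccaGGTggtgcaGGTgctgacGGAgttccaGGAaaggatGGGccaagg
The stretch from Col4a1, a chain of the basement membrane network, shows the contrast. Between its glycines stand 2 extra codons, which break the repeat.
Col4a1, exon 32, chr8:11220291-11220350, minus strand: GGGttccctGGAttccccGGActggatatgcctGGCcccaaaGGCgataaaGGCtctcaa

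The length of the unbroken repeat set the fibrillar class apart, and the exon length did so only in part. Of the 649 coding exons of the 11 fibrillar chains, 305 (47.0%) were exactly 54 bases long, against 12 of 302 (4.0%) in the 9 network chains and 469 of 2004 (23.4%) over all 44 chains. The longest unbroken run was 338 repeats in Col1a1, 339 in Col1a2 and 344 in Col3a1, and 40 in Col4a1. Among the fibrillar chains, Col24a1 with 216 and Col27a1 with 217 repeats had the shortest runs. FACIT chains had 109 of 432 coding exons (25.2%) of 54 bases and longest runs of 32 to 113 repeats. Their share of 54-base exons ran from 6.2% in Col12a1 to 44.4% in Col22a1, which was above the 41.2% of Col1a1. The runs of Col12a1, Col14a1 and Col20a1, at 32, were shorter than those of any network chain (39 to 66). Beaded filament chains had runs of 37 to 87 repeats. Runs were 40 to 55 repeats in the transmembrane chains, which are anchored in the cell membrane, and 30 in both multiplexins, which have many breaks. Col7a1, the chain of the fibrils that anchor epithelium, had a longest run of 75 repeats.

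**Figure D1:**
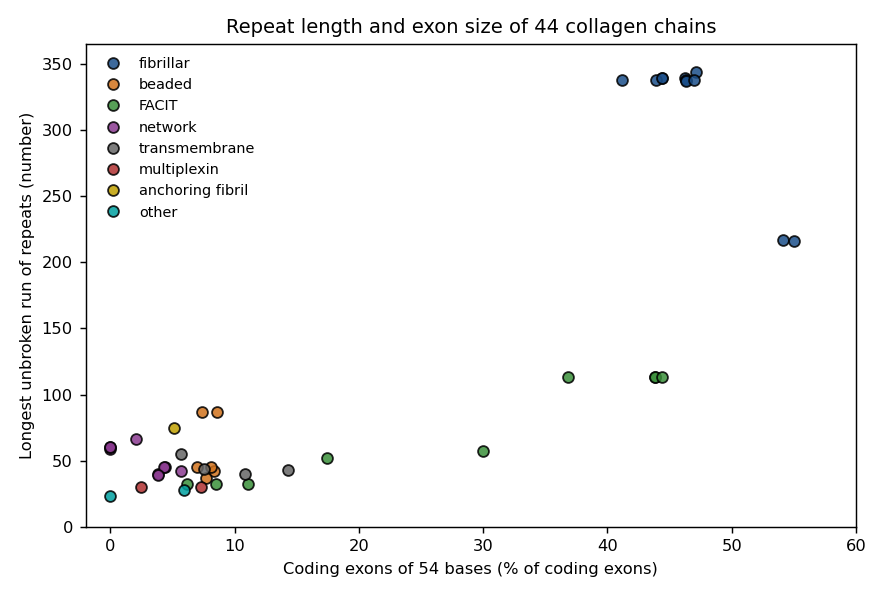
Each point is 1 of the 44 collagen chains, with the percentage of its coding exons that are 54 bases long on the x axis and the longest unbroken run of glycine repeats, in repeats, on the y axis, coloured by class. The fibrillar chains stand apart at 216 to 344 repeats, and the other classes stay at 113 repeats or fewer.

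The genotype was checked by Eln itself. It stood at 159, 1214, 175, 790 and 702 CPM (counts scaled to the size of the library, with TMM factors) in the Eln+/+ libraries and at 0 to 0.493 CPM in the Eln-/- libraries, with 38 counts in all 5 together. The genotypes did not overlap, and Eln had the smallest p of all tested genes (unadjusted p = 9.69e-06), but with an adjusted p of 0.152 by edgeR's quasi-likelihood test it missed the threshold of 0.05. Total counts were 26951681 to 63866346 per library, and 3 counts corresponded to 0.0344 to 0.218 CPM. The number of genes with a count ran from 15089 to 22951. It was lowest in Eln+/+ replicate 1 (15089), Eln-/- replicate 4 (15595) and Eln-/- replicate 5 (15925), and highest in Eln-/- replicate 1 and Eln+/+ replicate 2 (21864). Main results are given below also without Eln-/- replicate 1, and some of them also without the 3 libraries with the fewest genes.

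Collagen transcripts varied more between libraries of a genotype than between the genotypes. All 44 chains together took 0.0286%, 1.31%, 0.477%, 0.926% and 0.278% of the counts in the Eln+/+ libraries, in the order of replicates 1 to 5 used throughout. In the Eln-/- libraries they took 2.55%, 0.483%, 0.225%, 0.0271% and 0.0393%. The ranges overlapped, with Eln-/- replicate 1 above all others and the 3 libraries with the fewest genes at the bottom. The means were 0.603% ± 0.512 (SD, n = 5) and 0.664% ± 1.07 (SD, n = 5), and without Eln-/- replicate 1 the Eln-/- mean was 0.194%. Without the 3 libraries with the fewest genes, the means were 0.747% in Eln+/+ and 1.08% in Eln-/- libraries. In bulk samples, fewer cells of a type and less RNA per cell cannot be told apart. The number of chains with at least 10 counts ran from 13 in Eln+/+ replicate 1 and 15 in Eln-/- replicate 5 to 37 in Eln+/+ replicate 2 and 39 in Eln-/- replicate 1. It did not follow the collagen share throughout. Eln-/- replicate 4, with the lowest share, had 21 such chains, near the 22 of Eln+/+ replicate 3 with its share of 0.477%.

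Fibrillar chains dominated the collagen counts of every library. They made up 83.5% to 93.6% of them, and Col1a1, Col1a2 and Col3a1 alone made up 72.5% to 91.8%. The share of these 3 chains was 74.9%, 72.5% and 79.7% in the 3 libraries with the fewest genes, and 87.2% to 91.8% in the other 7. Scaled by the summed length of their exons, the same 3 chains held the top 3 places among the 44 in 10 of 10 libraries. Col1a1 averaged 372 CPM per kb over the 10 libraries, Col1a2 102 and Col3a1 79.2. Col6a1 followed with 29.1 CPM per kb and Col14a1 with 8.90. When lengths were taken from the longest coding transcript, the first 3 averaged 412, 236 and 140 CPM per kb and kept the top 3 places in 10 of 10 libraries, and Col1a1 was highest in 7 libraries in place of 9. Among 27287 genes with a length, Col1a1 ranked 10 by CPM per kb in Eln-/- replicate 1 and 46 in Eln+/+ replicate 2, but 2733, 2849 and 2247 in Eln+/+ replicate 1, Eln-/- replicate 4 and Eln-/- replicate 5.

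**Figure D2:**
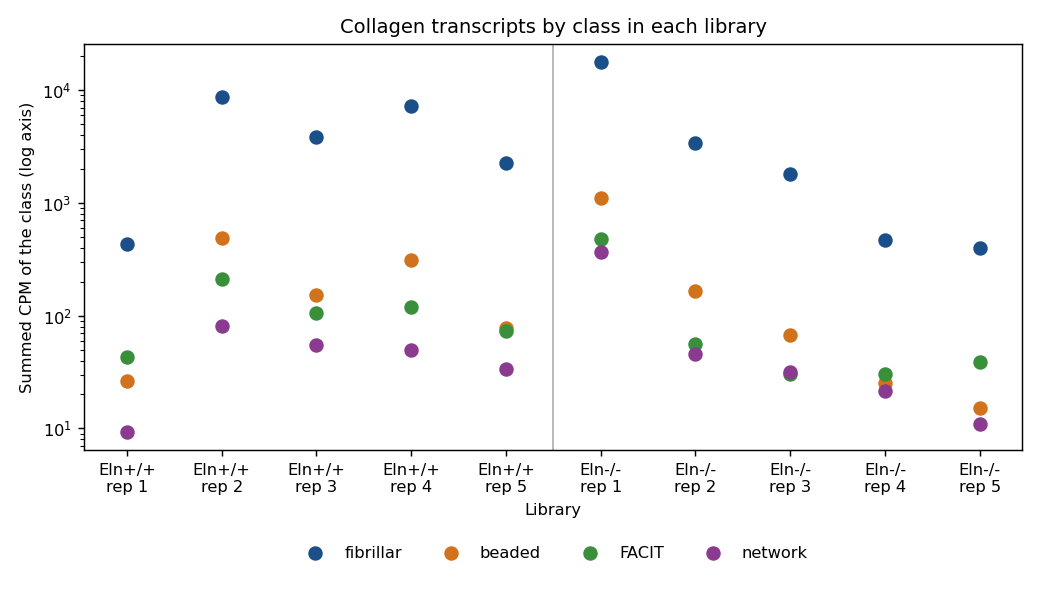
Points give the summed CPM (log axis) of the fibrillar, beaded, FACIT and network chains in each library, 5 Eln+/+ on the left and 5 Eln-/- on the right. The fibrillar sum runs from 399 CPM in Eln-/- replicate 5 to 17651 CPM in Eln-/- replicate 1, and the 2 genotypes overlap in all 4 classes.

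In the test of genotype, no collagen chain passed the threshold. That does not show equal levels, since the mutated gene Eln did not pass it either (adjusted p = 0.152, edgeR). Of the 44 chains, 28 had enough counts to be tested, and 0 passed an adjusted p of 0.05 in edgeR's quasi-likelihood test, against 0% of the 15718 genes tested. At an unadjusted p under 0.05 in this edgeR fit there were 0 of 28 chains, against 0.515% of all genes (81 genes). Neither did DESeq2 call a chain (0.0392% of the filtered genes and 0.12% of all genes called), nor limma-voom (0.0127%, or 0.0445% with sample weights), nor edgeR without Eln-/- replicate 1 (0.00627%). DESeq2 gave no adjusted p for some genes, among them Col4a1 and Col4a2, and so could not call them. An unadjusted p under 0.05 was reached by 1 of 28 chains with DESeq2 on the filtered genes and 3 of 44 on all genes. With limma-voom it was 1 of 28, or 3 of 28 with sample weights, and with edgeR without Eln-/- replicate 1 it was 2 of 28. The shares of all genes at that level are not given for these alternatives. No chain had 5 libraries of one genotype all above or all below the other 5, against 0.305% of all genes (48 genes). The fitted log2 fold change, Eln-/- over Eln+/+, was above 0 for 22 chains and below 0 for 6, with a median of 0.57, and 51.5% of all genes were above 0, with a median of 0.02. Without Eln-/- replicate 1 that split turned over: 5 of 28 chains were above 0 and 23 below, with a median of -1.08, beside 56.2% of all genes below 0 and a median of -0.13. Without Eln+/+ replicate 1, Eln-/- replicate 4 and Eln-/- replicate 5, 30 of 36 chains were above 0, with a median of 0.91, beside 52.8% of all genes. The SD of log2 CPM over the 10 libraries had a median of 2.96 for the tested chains and 1.79 for all tested genes. By class it was 1.89 for the fibrillar chains, 3.02 for the FACIT, 3.33 for the network and 3.43 for the beaded chains. Genes were not matched for level, so this does not show that collagens vary more than other genes. The biological coefficient of variation of the fit was 1.16.

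The 16 untested chains were those with few counts in most libraries. They were Col2a1 and Col11a2 among the fibrillar chains, Col4a3, Col4a4, Col4a6 and Col10a1 among the network chains, Col9a1, Col19a1, Col20a1 and Col22a1 among the FACITs, Col6a4, the transmembrane Col13a1, Col17a1 and Col25a1, and Col7a1 and Col28a1. Since a chain could pass this filter through 1 genotype alone, the counts over the 28 describe those chains only.

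**Figure D3:**
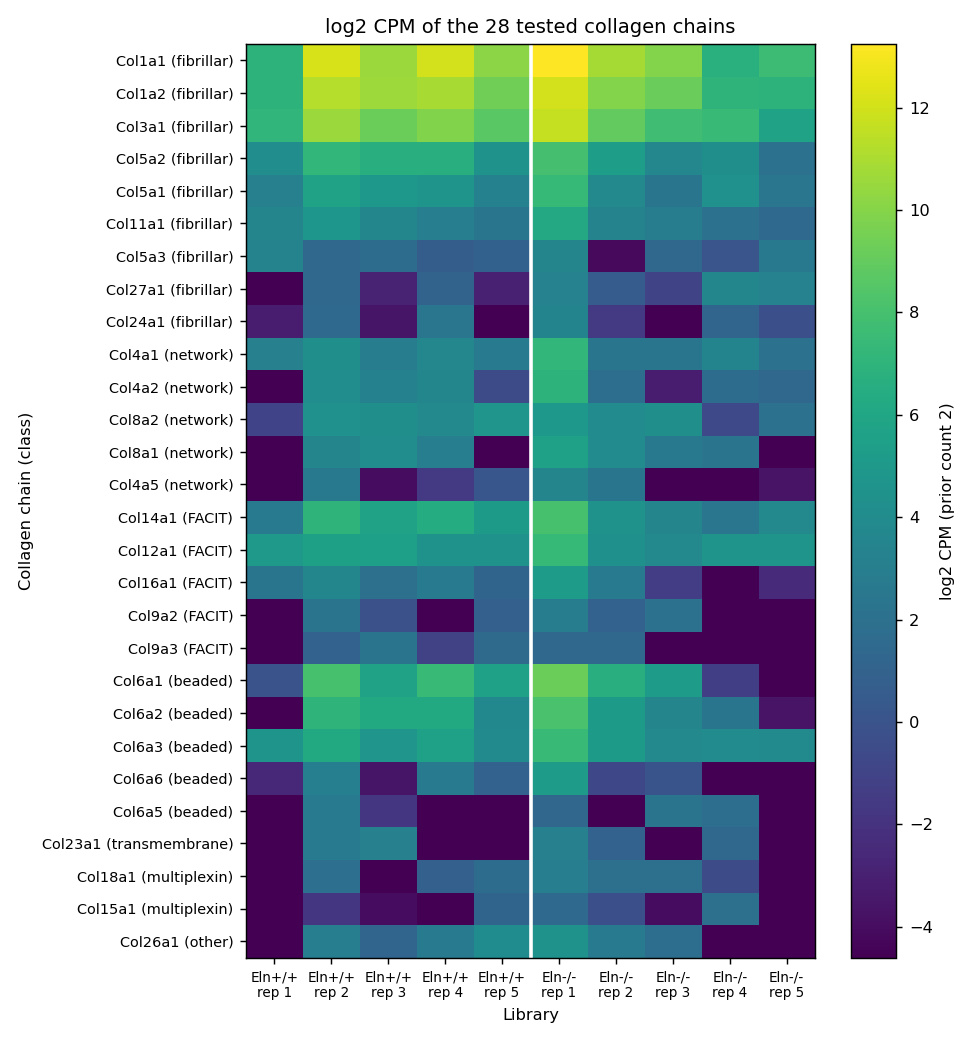
Each row is 1 of the 28 tested chains and each column a library, with colour giving log2 CPM (prior count 2) and a white line between the 5 Eln+/+ and the 5 Eln-/- libraries. Eln-/- replicate 1 is bright and Eln+/+ replicate 1 dark over most rows, while Col12a1 and Col6a3 stay close to one colour.

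Type I and type III collagen, the main load-bearing fibrils of the artery, set the pattern of the fibrillar class. Col1a1, whose product supplies 2 of the 3 chains of type I, was at 120, 4627, 1486, 4217 and 1139 CPM in the Eln+/+ libraries and at 9699, 1875, 975, 107 and 195 CPM in the Eln-/- libraries. Col1a2, which supplies the other chain, was at 121, 2420, 1595, 1913 and 660 CPM against 4132, 954, 576, 128 and 123 CPM. Col3a1, whose fibrils mingle with type I, was at 140, 1474, 603, 911 and 413 CPM against 3300, 490, 216, 170 and 52.5 CPM. For all 3 genes Eln-/- replicate 1 was the highest of the 10 libraries, Eln+/+ replicate 2 the next, and the other Eln-/- libraries lay within or below the Eln+/+ range. The log2 fold changes were 0.15 (SE 1.19) for Col1a1, -0.18 (SE 1.02) for Col1a2 and 0.26 (SE 1.02) for Col3a1, none past the threshold (adjusted p = 1.00, edgeR). Without Eln-/- replicate 1 they were -1.56, -1.60 and -1.61, also with adjusted p = 1.00 by edgeR. Without the 3 libraries with the fewest genes they were 0.57, 0.22 and 0.67.

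Type V collagen sits inside type I fibrils and limits their width. Col5a1 was at 8.86, 50.4, 29.8, 24.8 and 9.56 CPM in Eln+/+ and at 165, 13.6, 4.90, 21.4 and 5.28 CPM in Eln-/- libraries. Col5a2, its partner chain, was at 17.5, 148, 102, 98.0 and 22.6 CPM against 251, 41.9, 12.5, 19.9 and 4.26 CPM. Both again had their highest value in Eln-/- replicate 1, with overlapping genotypes and log2 fold changes of 0.77 (SE 0.98) and -0.24 (SE 1.00). Some exons of Col5a1 overlap those of noncoding genes on the other strand. Col5a3, the rarer chain of type V, was also highest in Eln-/- replicate 1, but Eln+/+ replicate 1, low for its partners, came next. It was at 10.5, 2.53, 3.29, 1.52 and 1.92 CPM against 11.4, 0.0152, 2.51, 1.02 and 6.14 CPM. Col11a1, a chain of type XI collagen, the close relative of type V, had a log2 fold change of 0.58 (SE 0.92).

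Col27a1, a fibrillar chain with a shortened repeat, had the smallest p of any chain. It was at 0, 2.68, 0.101, 2.11 and 0.0891 CPM in Eln+/+ and at 10.1, 1.45, 0.490, 11.8 and 10.0 CPM in Eln-/- libraries. In contrast to type I, its high values were in 3 Eln-/- libraries that included replicates 4 and 5, while Eln-/- replicates 2 and 3 lay within the Eln+/+ range. Its log2 fold change was 2.75 (SE 1.49, unadjusted p = 0.0894, adjusted p = 1.00, edgeR), 2.55 without Eln-/- replicate 1 and 1.70 without the 3 libraries with the fewest genes. The fold change was above 0 in 20 of 20 settings and past the threshold in 0, with a smallest adjusted p of 0.647 when no genes were filtered (edgeR). Such a constant sign was not particular to Col27a1. Col18a1 and Col9a2 were also above 0 in 20 of 20 settings, Col15a1 and Col6a5 in 19 of 19, and Col9a3 was below 0 in 20 of 20. The settings reuse the same 10 libraries and are not independent. Col24a1, the other fibrillar chain with a shortened repeat, had a log2 fold change of 0.81 (SE 1.86). Col2a1, the main fibrillar chain of cartilage, was at or below 2.44 CPM everywhere, with 213 counts in Eln+/+ replicate 2, 46 and 51 in Eln-/- replicates 2 and 3, and 3 or fewer in the other 7 libraries.

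In the network class, the basement membrane chains were set apart by a single library. Col4a1 was at 8.86, 19.9, 7.65, 12.4 and 6.46 CPM in Eln+/+ and at 151, 5.12, 4.99, 10.9 and 4.07 CPM in Eln-/- libraries. Col4a2, which joins it in the common type IV molecule, was at 0, 17.6, 9.64, 11.9 and 0.691 CPM against 125, 3.60, 0.0639, 3.27 and 2.60 CPM. Outside Eln-/- replicate 1, no Eln-/- library exceeded 10.9 CPM of Col4a1 or 3.60 CPM of Col4a2, and both genes overlapped between the genotypes. Their log2 fold changes were 1.68 (SE 1.05, unadjusted p = 0.138, adjusted p = 1.00, edgeR) and 1.76 (SE 1.71), and without Eln-/- replicate 1 they were -0.83 and -1.75. Without the 3 libraries with the fewest genes they were 2.24 and 2.13.

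The 2 genes lie head to head on chromosome 8, and the annotation gives them 22 bases in common at their first exons. It is shown because reads there cannot be assigned to one gene without the strand, and it reads as follows on the plus strand.
Col4a1 and Col4a2, chr8:11312805-11312826: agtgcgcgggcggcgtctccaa
Col8a1 and Col8a2 encode the chains of type VIII, a short-chain network collagen known from vessel walls. Col8a2 was at 0.463, 21.5, 19.7, 14.1 and 25.7 CPM in Eln+/+ and at 30.4, 16.2, 19.4, 0.581 and 4.26 CPM in Eln-/- libraries. It was low in the 3 libraries with the fewest genes and within 14.1 to 30.4 CPM in the other 7, a narrower span than that of Col1a1 there. The log2 fold changes were -0.20 (SE 1.03) for Col8a2, 1.04 (SE 1.79) for Col8a1 and 1.10 (SE 2.05) for Col4a5, a minor chain of type IV. Col10a1, the chain of growing cartilage, had 44 counts in Eln-/- replicate 1 and 0 in the other 9 libraries.

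Among the FACITs, Col12a1 had the steadiest level of all tested chains. It was at 31.3, 45.4, 43.9, 23.9 and 23.6 CPM in Eln+/+ and at 164, 20.6, 14.0, 25.0 and 25.1 CPM in Eln-/- libraries, so that 9 of 10 libraries lay between 14.0 and 45.4 CPM. Its SD over the libraries was 0.97 on the log2 scale, against 2.27 for Col1a1, and its log2 fold change was 0.56 (SE 0.69). Col14a1, which like type XII coats type I fibrils, was at 7.14, 128, 51.3, 88.1 and 34.7 CPM against 260, 24.2, 11.5, 5.37 and 13.7 CPM. Eln-/- replicate 1, Eln+/+ replicate 2 and Eln+/+ replicate 4 were its 3 highest libraries, as for Col1a1, and its log2 fold change was 0.02 (SE 1.05). Without Eln-/- replicate 1 the values were -0.67 for Col12a1 and -2.18 for Col14a1. Without the 3 libraries with the fewest genes they were 0.98 and 0.40. Col9a3, a chain of cartilage type IX, had the largest negative value of the tested chains, at -0.97 (SE 1.82). It was at 0, 1.96, 4.87, 0.428 and 2.94 CPM in Eln+/+ and at 2.46, 2.70, 0, 0 and 0 CPM in Eln-/- libraries, and 234 bases of its exons overlap exons of Tcfl5 on the other strand. Col16a1, another fibril-associated chain, had a log2 fold change of 0.60 (SE 1.51), and Col9a2 one of 0.93 (SE 1.90).

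The beaded filament collagen VI is assembled from the products of Col6a1, Col6a2 and Col6a3. Col6a1 was at 0.926, 270, 51.2, 177 and 47.7 CPM in Eln+/+ and at 595, 95.0, 36.8, 0.363 and 0 CPM in Eln-/- libraries. Col6a2 was at 0, 125, 76.9, 76.2 and 13.4 CPM against 279, 35.0, 11.4, 5.08 and 0.0377 CPM. Col6a3 was at 25.1, 76.6, 25.7, 50.0 and 14.4 CPM against 183, 34.3, 13.9, 16.4 and 15.1 CPM. The 3 chains therefore differed in the libraries with the fewest genes, where Col6a1 had 14, 5 and 0 counts while Col6a3 had 379, 226 and 401 counts in Eln+/+ replicate 1, Eln-/- replicate 4 and Eln-/- replicate 5. Log2 fold changes were 0.41 (SE 1.72), 0.18 (SE 1.64) and 0.45 (SE 0.81) for Col6a1, Col6a2 and Col6a3, and -1.73, -2.18 and -0.95 without Eln-/- replicate 1. Without the 3 libraries with the fewest genes they were 0.85, 0.60 and 0.91. Col6a5 and Col6a6, whose chains resemble that of Col6a3, had log2 fold changes of 0.66 (SE 2.16) and 1.18 (SE 1.95).

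The chains of the remaining classes had low levels and were at 0 counts in several libraries each. Col23a1, the 1 transmembrane chain tested, was at 0, 7.17, 8.95, 0 and 0 CPM in Eln+/+ and at 8.91, 1.97, 0, 2.47 and 0 CPM in Eln-/- libraries, with a log2 fold change of -0.27 (SE 2.19). Col25a1, another membrane collagen, reached 8.13 CPM in Eln-/- replicate 4 and was at 0 in 5 libraries. The multiplexins, basement membrane collagens whose ends can be released as soluble fragments, were Col18a1, at 0, 3.81, 0, 1.77 and 3.23 CPM against 8.28, 3.96, 3.96, 0.654 and 0 CPM, and Col15a1, at 0, 0.252, 0.0203, 0 and 2.18 CPM against 2.77, 0.808, 0.0213, 3.85 and 0 CPM. Neither separated the genotypes, with log2 fold changes of 0.93 (SE 1.73) and 1.58 (SE 1.84). Col26a1 was at 0, 8.16, 2.33, 6.91 and 17.0 CPM against 23.0, 6.89, 3.47, 0 and 0 CPM, with a log2 fold change of -0.04 (SE 1.73). Col7a1 had 17 counts in Eln+/+ replicate 2, 2 in Eln-/- replicate 1 and none elsewhere. Col28a1 had 32 counts in Eln+/+ replicate 2, 42 and 83 in Eln-/- replicates 1 and 3, and none elsewhere.

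**Figure D4:**
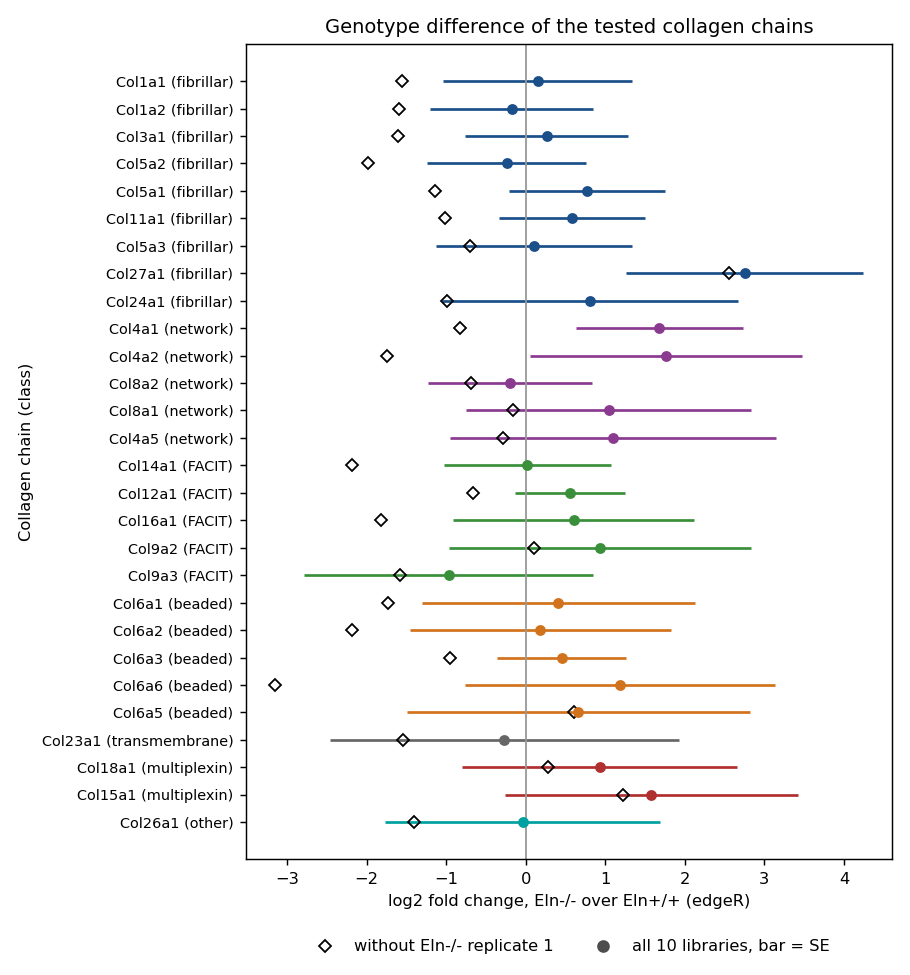
Filled points give the edgeR log2 fold change (Eln-/- over Eln+/+) of each tested chain over all 10 libraries with its SE as a bar, coloured by class, and open diamonds give the value without Eln-/- replicate 1. With 10 libraries 22 of the 28 points lie above 0, and without that library 5 of 28 do, Col27a1 at 2.55 being the highest diamond.

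Ratios between 2 chains do not depend on how a library is scaled. They were compared where both chains had at least 10 counts, on CPM per kb of summed exons. The pairs were chains of 1 molecule, except Col1a1 to Col3a1, which belong to different molecules whose fibrils mingle. Col1a1 to Col1a2 was 1.88, 3.62, 1.76, 4.17 and 3.27 in Eln+/+ and 4.44, 3.72, 3.20, 1.59 and 3.00 in Eln-/- libraries. The ratio thus spanned 2.79-fold over 10 libraries, while Col1a1 alone spanned 90.3-fold and Col1a2 34.1-fold. Its SD was 0.54 on the log2 scale, against 2.27 and 1.89 for the single chains. The mean log2 ratio was 1.47 ± 0.57 (SD, n = 5) in Eln+/+ and 1.60 ± 0.56 (SD, n = 5) in Eln-/- libraries, a difference smaller than either SD. With the lengths of the longest coding transcripts, where Col1a2 measures 5348 in place of 12426 bases, every Col1a1 to Col1a2 ratio is multiplied by 0.476, so the ratio ran from 0.759 to 2.12 with the same span. The level of this ratio therefore depends on the length used.

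Over all libraries with enough counts, the other pairs had SDs of 0.78 to 2.25 on the log2 scale. In the 7 libraries with more genes, Col1a1 to Col3a1 (0.35) and Col6a3 to Col6a1 (0.30) had smaller SDs than Col1a1 to Col1a2 (0.44). Col1a1 to Col3a1 was 3.69 to 6.92 in the 7 libraries with more genes and lay outside that range in Eln+/+ replicate 1 (1.29) and Eln-/- replicate 4 (0.944), but not in Eln-/- replicate 5 (5.55). Col5a1 to Col5a2 ran from 0.286 to 0.742 in those 7 libraries and was 0.571, 1.22 and 1.40 in the other 3. Its mean log2 ratio was -1.33 ± 0.40 (SD, n = 5) in Eln+/+ and -0.46 ± 0.86 (SD, n = 5) in Eln-/- libraries. The highest ratios, 1.22 and 1.40, were those of Eln-/- replicates 4 and 5, and the difference was not tested. Col6a1 to Col6a2 was 1.27 in Eln+/+ replicate 3 and 4.06 to 6.77 in the other 6 libraries with enough counts. Col4a1 to Col4a2, genes that share a promoter region, ran from 0.704 to 2.96 in 7 of the 8 libraries with enough counts and was 8.30 in Eln+/+ replicate 5. The widest spread was that of Col6a3 to Col6a1, at 0.103 to 0.184 in 7 libraries and 9.91 in Eln+/+ replicate 1. The ranges of the 2 genotypes overlapped for every pair.

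**Figure D5:**
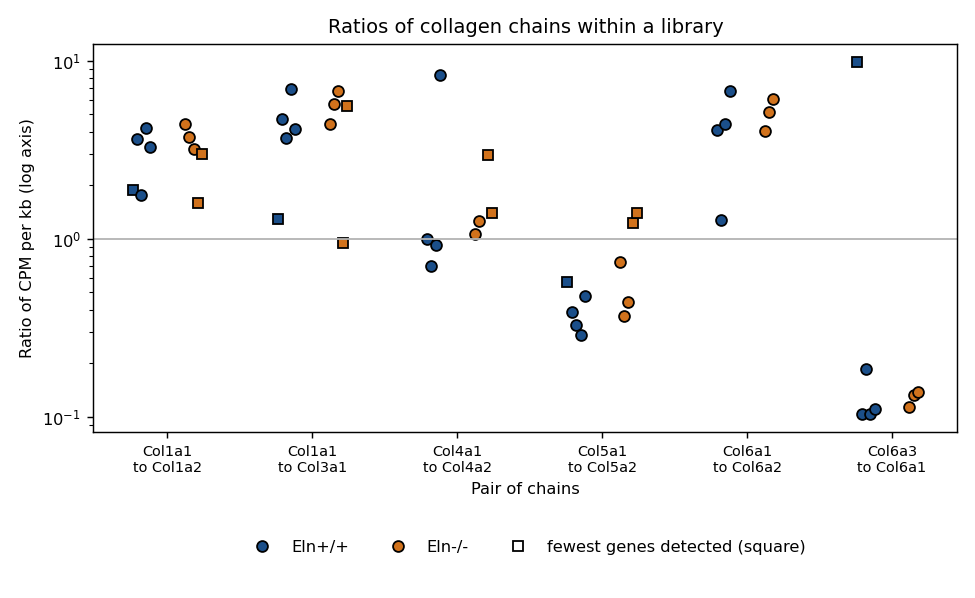
Points give the ratio of CPM per kb (log axis) between 2 collagen chains in each library with at least 10 counts of both, blue for Eln+/+ and orange for Eln-/-, with squares for the 3 libraries with the fewest genes detected. The ratio of Col1a1 to Col1a2 stays within 1.59 and 4.44, and that of Col6a3 to Col6a1 runs from 0.103 to 9.91.

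The machinery that makes collagen was read from 57 genes in 6 lists, of which 46 were tested. None passed the threshold by edgeR, beside 0% of all genes tested. There were 26 with a log2 fold change above 0 and 20 below, and the median was 0.14. Without Eln-/- replicate 1, 7 were above 0 and 39 below, with a median of -0.64, beside 56.2% of all genes below 0. Of the enzymes and chaperones for hydroxylation and folding, 18 of 19 were tested, with 9 above and 9 below 0. Serpinh1, the collagen chaperone of the endoplasmic reticulum, averaged 7520 ± 3742 CPM (SD, n = 5) in Eln+/+ and 6162 ± 2940 CPM (SD, n = 5) in Eln-/- libraries. The smallest p values in this list belonged to P4ha3, a prolyl hydroxylase subunit, at 1.47 (SE 1.42), and to Fkbp14, a folding enzyme, at -0.46 on the log2 scale. For P4ha3, Eln-/- replicate 1 had 123 CPM, the remaining 4 of that genotype had 3.39 to 33.3 CPM, and the log2 fold change without that library was 0.03. For export from the cell, 2 of 7 genes were above 0 and 5 below, with 0.67 for Mia3, the cargo receptor that loads procollagen (-0.20 without Eln-/- replicate 1), and 0.42 for the coat protein gene Sec13.

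Outside the cell, 4 of 8 genes for trimming of the propeptides were tested, 3 above and 1 below 0. Bmp1, which removes the carboxyl end, stood at 1.08 and Adamts2, which removes the amino end, at 0.99 on the log2 scale, and both were below 0 without Eln-/- replicate 1, at -0.41 and -0.71. All 4 tested cross-linking oxidases were above 0, with Lox at 0.50 and Loxl3 at 0.49, but without Eln-/- replicate 1 the count was 1 above and 3 below, with Lox at -0.34 and Loxl3 at 0.04. Of the 7 fibril partners, 4 were above and 3 below 0. Dcn, the small proteoglycan decorin that binds fibrils, averaged 1566 ± 862 CPM (SD, n = 5) in Eln+/+ and 647 ± 424 CPM (SD, n = 5) in Eln-/- libraries. Its log2 fold change was -1.28 (SE 0.67, unadjusted p = 0.0822, edgeR), and -1.63 without Eln-/- replicate 1. Fn1, fibronectin, on which fibrils are laid down, had a log2 fold change of 1.28 (-1.23 without Eln-/- replicate 1), with 1029 CPM in Eln-/- replicate 1 and 21.5 to 232 CPM in the other 9 libraries. Of the 11 receptors, 6 were tested. Itga11, the alpha subunit of a collagen-binding integrin, had a log2 fold change of 2.37 (SE 1.27, unadjusted p = 0.0863, edgeR), or 0.50 without Eln-/- replicate 1, with 56.2 CPM in Eln-/- replicate 1 and 0.325 to 9.59 CPM in the other 9 libraries. Ddr2, a collagen-sensing kinase, was at -0.42 on the log2 scale. Neither Dcn nor Itga11 passed after adjustment.

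Markers of other cells and states were read beside these levels. The 8 smooth muscle markers all had at least 10 counts in 5 or more libraries, and their summed CPM was 870 to 2142 in Eln+/+ and 1150 to 3446 in Eln-/- libraries. Levels differed within this list, with Acta2 itself at 473 to 1742 CPM and Tagln at 129 to 1452 CPM. Cnn1 was at 16.6 to 352 CPM and Cald1 at 23.7 to 531 CPM. Myh11 was at 1.47 to 34.5 CPM in Eln+/+ and 0.0377 to 119 CPM in Eln-/- libraries. Myocd, Smtn and Des each had 0 counts in at least 1 library. The 11 fibroblast markers, which include the fibril partners Dcn and Lum, summed to 2864 to 5475 CPM in Eln+/+ and 1655 to 3428 CPM in Eln-/- libraries. A few genes carried this sum. In Eln+/+ replicate 1, Mfap5 alone gave 2233 of 3542 CPM, while Lum was at 51.3 CPM and Scara5 at 0. The log2 fold changes were above 0 for Pi16 (0.70) and Tcf21 (0.36) and below 0 for the other members, none past the threshold by edgeR. Cartilage markers summed to 17.8 to 166 CPM over all libraries, with Matn1 at 0 in all 10. Endothelial markers summed to 0.565 to 64.3 CPM, with Pecam1, which encodes CD31, at 0 to 7.70 CPM, and macrophage markers to 0 to 13.2 CPM. The 20 immediate early genes, which answer to cell stress and stimulation, summed to 25284 CPM in Eln-/- replicate 1 and 9910 CPM in Eln+/+ replicate 2, the 2 libraries with the largest collagen shares, and to 858 to 4088 CPM in the other 8. Erythroid genes reached 18883 CPM in Eln+/+ replicate 1 and 5157 CPM in Eln-/- replicate 4, and 22.3 to 1356 CPM in the other 8 libraries. Cardiac muscle markers (6 genes) reached 598 CPM in Eln+/+ replicate 2 and 422 CPM in Eln-/- replicate 2, with ranges of 3.15 to 598 CPM in Eln+/+ and 12.4 to 422 CPM in Eln-/- libraries. Epithelial and mesothelial markers summed to 5.39 to 148 CPM and glial markers to 2.87 to 58.3 CPM. The part of these markers in the collagen levels was not tested.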

How the data were processed

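The authors deposited 1 table of estimated counts, not scaled for library size, for 28165 genes in 10 libraries, which were prepared by a low-input kit for mRNA (per the labels' protocols). STAR and DESeq2 were used with mm10, per the submitters' processing notes. Not given in the sources used here are the versions, counting program, annotation and strandedness, so reads of overlapping genes cannot be told apart by strand. Exons of 13 chains overlap another gene, and related chains can share reads. Between 23.5% and 48.8% of a library's values were not whole (tolerance 1e-06), and all were rounded. Gene spans equalled those of GENCODE M21 (GRCm38) for 96.0% of genes and all 44 chains, once the table's end was read as 1 base too high.

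Genes were filtered with filterByExpr and scaled with TMM factors, and Eln-/- was compared with Eln+/+ by edgeR 4.0.16 in R 4.3.3 (quasi-likelihood test, two-sided, genotype only) with Benjamini-Hochberg adjustment over 15718 genes. The SE is the log2 fold change divided by the square root of F. CPM per kb used the union of annotated exons, and ratios needed 10 counts of both chains. Alternatives were DESeq2 1.42.0, limma 3.58.1 (voom, with and without sample weights), DESeq2 size factors, no filter, a replicate block, and left-out libraries. Transcript length was added after seeing the data. The procedure was tested on simulated data.

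The chains, lists and tests were chosen with earlier results of these data known. Named were the 2 most abundant chains of each class, all chains of types I, III, V and the main ones of IV and VI, Col2a1, the 2 smallest p in each direction, 2 genes per pathway list, and Eln. Other genes given with values were chosen after their values were seen. Same-numbered replicates did not deviate together (correlations -0.556, 0.51, 0.118, -0.381 and 0.092 for replicates 1 to 5), so no pairing was used.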

Additional observations from a re-analysis of the deposited data

Results flagged for a closer look

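Among 48 sets of 5 libraries checked, 21 had 1 library far from the other 4 for its gap relative to the range. For values that follow a normal distribution, chance flags about 1 in 20 such sets. The levels here were skewed, and some chains had no counts in most libraries, so that rate does not apply to them. The 21 flags therefore cannot be weighed against chance. The chains also share libraries, so the flags are not independent.

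In the Eln-/- group, replicate 1 was the high library in all 15 flagged sets. Its collagen share was 2.55% of counts, against 0.0271% to 0.483% in the other 4. Fibrillar chains flagged there were Col1a1 at 9699 CPM, Col1a2 at 4132, Col3a1 at 3300, Col5a1 at 165 and Col5a2 at 251 CPM. The basement membrane chains Col4a1 and Col4a2 stood at 151 and 125 CPM. Col12a1 and Col14a1, the FACITs of type I fibrils, stood at 164 and 260 CPM. Collagen VI chains followed with Col6a1 at 595, Col6a2 at 279 and Col6a3 at 183 CPM. Col23a1 at 8.91 CPM and Col7a1 at 0.0274 CPM, the latter from 2 counts, were flagged at low levels.

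In the Eln+/+ group, the flags were spread over 3 libraries and were all at low levels. Replicate 2 was high for Col25a1 (2.88 CPM), Col2a1 (2.44 CPM), Col28a1 (0.367 CPM) and Col7a1 (0.195 CPM). Replicate 1 was high for Col5a3, at 10.5 CPM (the other 4 lay at 1.52 to 3.29 CPM), although it was low for most other chains. Replicate 5 was high for Col15a1, at 2.18 CPM.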

How the results depend on the processing

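No collagen chain and no gene of the pathway lists passed the threshold under any alternative. Over all genes, edgeR called 0, DESeq2 called 28 on all genes and 6 on the filtered genes, limma-voom 2 and 7 with sample weights, and edgeR 1 without both Eln+/+ replicate 2 and Eln-/- replicate 1. Leaving out each library in turn gave 0 to 1 genes. The direction of most chains depended on the alternative, and the cause was not tested. Above 0 were 22 of the 28 tested chains in the main fit. With the replicate block 8 were above 0, with limma-voom 13 and with sample weights 10. The reversals listed below cover only the chains named by the rule above, and others reversed too. Col8a2, for example, went from -0.20 to 0.14 without the 3 libraries with the fewest genes.

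The median log2 fold change of the chains ran from -1.08 (without Eln-/- replicate 1) to 1.05 (without Eln+/+ replicate 2) with 1 library left out. It was -0.18 with limma-voom, -0.66 with sample weights, -0.95 without those 2 libraries together and 0.91 without the 3 with the fewest genes. With 1 library left out, the mean collagen share ran from 0.428% to 0.747% in Eln+/+ and 0.194% to 0.823% in Eln-/- libraries, and without the 3 libraries with the fewest genes it was 0.747% and 1.08%. With transcript lengths the mean log2 ratio was 0.46 for Col1a1 to Col1a2 (1.53 with summed exons) and 1.06 for Col6a1 to Col6a2 (2.04).

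With the replicate number as a block, which does not pair these samples (only replicate 3 correlated best with its own number), 0 genes were called and the median was -0.73. Reversed under the block were Col1a1 (-1.36), Col3a1 (-1.37), Col5a1 (-0.63), Col5a3 (-0.59), Col4a1 (-0.15), Col4a2 (-0.88), Col12a1 (-0.11), Col14a1 (-1.66), Col6a1 (-2.54), Col6a2 (-2.74), Col6a3 (-0.29) and Col23a1 (1.73).

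Reversed with limma-voom were Col1a1 (-0.66), Col3a1 (-0.76), Col5a1 (-0.23), Col5a3 (-1.11), Col14a1 (-0.76), Col6a1 (-1.74), Col6a2 (-0.98) and Col23a1 (1.09). With sample weights these were Col1a1 (-0.83), Col3a1 (-0.89), Col5a1 (-0.82), Col5a3 (-3.59), Col4a1 (-0.67), Col4a2 (-1.85), Col12a1 (-0.28), Col14a1 (-1.51), Col6a1 (-0.96), Col6a2 (-1.03), Col6a3 (-0.35) and Col23a1 (3.16). Without Eln+/+ replicate 2 and Eln-/- replicate 1 they were Col1a1 (-1.14), Col3a1 (-1.15), Col5a1 (-0.70), Col5a3 (-0.83), Col4a1 (-0.50), Col4a2 (-1.23), Col12a1 (-0.54), Col14a1 (-1.73), Col6a1 (-1.06), Col6a2 (-1.69) and Col6a3 (-0.53). Without the 3 libraries with the fewest genes they were Col1a2 (0.22), Col5a2 (0.16) and Col26a1 (0.39), and with DESeq2 on all genes Col26a1 (0.01).

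With 1 library left out, Col1a1 ran from -1.56 to 0.57, Col1a2 from -1.60 to 0.15, Col3a1 from -1.61 to 0.72, Col5a1 from -1.14 to 1.21, Col5a2 from -1.99 to 0.14, Col5a3 from -0.70 to 0.88, Col4a1 from -0.83 to 2.01, Col4a2 from -1.75 to 2.28, Col12a1 from -0.67 to 0.80, Col14a1 from -2.18 to 0.48, Col6a1 from -1.73 to 1.07, Col6a2 from -2.18 to 0.67, Col6a3 from -0.95 to 0.87, Col23a1 from -1.55 to 0.57 and Col26a1 from -1.40 to 0.62. Every one of these lowest values was without Eln-/- replicate 1. Col27a1 stayed at 2.45 to 3.53, Col15a1 at 0.87 to 4.30, Col18a1 at 0.28 to 1.43 and Col9a3 at -1.70 to -0.36. Depth limits the chains under 10 counts, for which a difference was not detectable.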
